A study of Mus musculus with 6 samples.

Results

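The mitochondrial genome of the mouse was described through its 37 annotated genes, taken as every gene that the deposited annotation places on chromosome MT, of 57186 genes in the count table. They were 13 mRNA genes, 2 rRNA genes and 22 tRNA genes. The libraries were bulk RNA-seq of tumours of MB49, a mouse bladder carcinoma cell line. In the Y-KO group the line carried the CRISPR Y-KO genotype, and in the Y-Scr group, the control, it carried the CRISPR Y-Scr genotype. Cells of either line were grown as tumours beneath the skin of C57Bl/6J mice. At a size of 500 mm3 the tumours were collected, and cells negative for the leukocyte antigen CD45 were sorted. Total RNA was extracted, and its poly-A fraction was made into stranded libraries. Each group had 3 libraries and all 6 carried the same batch label. The age and sex of the mice, and whether each edited line was 1 clone, were not given in the sources used here. Whether replicates were separate animals is not stated in the labels, so a p-value here compares libraries whose spread may be technical.

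The mitochondrial genome is a small circle that encodes core subunits of respiratory complexes I, III, IV and V, together with the rRNAs and tRNAs that translate them inside the organelle. Both strands are transcribed as long precursors, from which the tRNAs that lie between the other genes are cut out, so that the mRNAs and rRNAs are released at their ends. All other mitochondrial proteins, among them most subunits of the same complexes and every factor that copies, transcribes and processes the mitochondrial genome, are encoded in the nucleus and imported. Stretches of mitochondrial sequence have also been inserted into the nuclear genome during evolution, and the mouse has a long one on chromosome 1.

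The annotation of that stretch bears on how the mitochondrial genes were counted. In the deposited annotation, 7 genes lie side by side on the minus strand of chromosome 1 between 24650616 and 24655278 (GRCm39), in the same order as mt-Co1 to mt-Nd4 on the mitochondrial genome. In the GENCODE M21 transcripts (GRCm38, matched by gene ID), 6 of these 7 copies were identical to the mitochondrial gene over all aligned bases. The seventh, Gm29216, a copy of the end of mt-Co1, was identical at 482 of 483 aligned bases, with the substitution A1066T (mt-Co1 base first, positions counted from 1 at the 5′ end of the gene). Sequences of 60 bases are shown for 2 of the pairs, since they show how closely gene and copy match. In the first pair, bases 1063 to 1122 of mt-Co1 stand beside bases 10 to 69 of Gm29216, and the capital marks the 1 base that differs. In the second, both sequences are bases 1 to 60, and no base differs.
mt-Co1: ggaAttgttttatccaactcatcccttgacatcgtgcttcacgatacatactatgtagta
Gm29216: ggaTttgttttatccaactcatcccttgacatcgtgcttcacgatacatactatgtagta
mt-Co2: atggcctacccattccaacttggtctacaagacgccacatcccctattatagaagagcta
Gm28661: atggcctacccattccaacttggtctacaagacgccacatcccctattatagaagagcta

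The libraries held between 42040955 and 52951031 counts. The Y-linked genes Kdm5d, Uty, Ddx3y and Eif2s3y, which check the labels, summed to 20.4 to 47.3 CPM (counts scaled to library size, adjusted by TMM) in Y-KO and to 296 to 344 CPM in Y-Scr. Markers of the carcinoma cells were mixed. The epithelial keratin gene Krt8 stood at 1990 ± 123 CPM in Y-KO, against 1502 ± 122 CPM in Y-Scr (means of CPM are given ± SD, n = 3, throughout). The epithelial adhesion gene Epcam stood at 1.04 CPM in Y-KO, against 3.66 CPM in Y-Scr, and 3 of the 11 epithelial and urothelial markers did not pass the filter on low counts. Despite the sort, Ptprc, which encodes CD45, was detected at 134 to 298 CPM in Y-KO, against 521 to 601 CPM in Y-Scr. Y-KO replicate 3 stood apart from the other Y-KO libraries in leukocyte and fibroblast markers, and replicates 1 and 2 of Y-KO and replicates 2 and 3 of Y-Scr resembled each other more closely than the other pairs of their group. Results that these libraries change are also given with them left out or summed.

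RNA of the mitochondrial genome took a larger share of the Y-KO libraries. The 37 genes held 6.44, 6.39 and 6.41% of all counts in Y-KO replicates 1 to 3, against 2.87, 2.94 and 2.99% in Y-Scr. The groups did not overlap and were tight, with means of 6.41 ± 0.0278% in Y-KO and 2.93 ± 0.0644% in Y-Scr (SD, n = 3 each). The ratio of the means was 2.19, with an exact permutation p (two-sided) of 0.1, and 3 libraries a group allow none lower. Relative to the counts on the tested nuclear genes, the share averaged 6.86% in Y-KO, against 3.02% in Y-Scr, a ratio of 2.27. In bulk RNA, a different number of cells of a type and a different amount of RNA per cell cannot be told apart.

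All 3 classes of RNA had a larger share in Y-KO. The 13 mRNAs held 6.19 ± 0.0310% of counts in Y-KO, against 2.84 ± 0.0676% in Y-Scr (SD, n = 3 each), a ratio of 2.18. The 2 rRNAs held 0.219 ± 0.0116% in Y-KO, against 0.0887 ± 0.00325% in Y-Scr, a ratio of 2.47, and the 22 tRNAs held 0.00304% in Y-KO, against 0.00127% in Y-Scr, a ratio of 2.40. In each class the lowest Y-KO library was above the highest Y-Scr library. The mRNAs thus made up nearly all mitochondrial counts, in libraries selected for poly-A RNA.

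**Figure D1:**
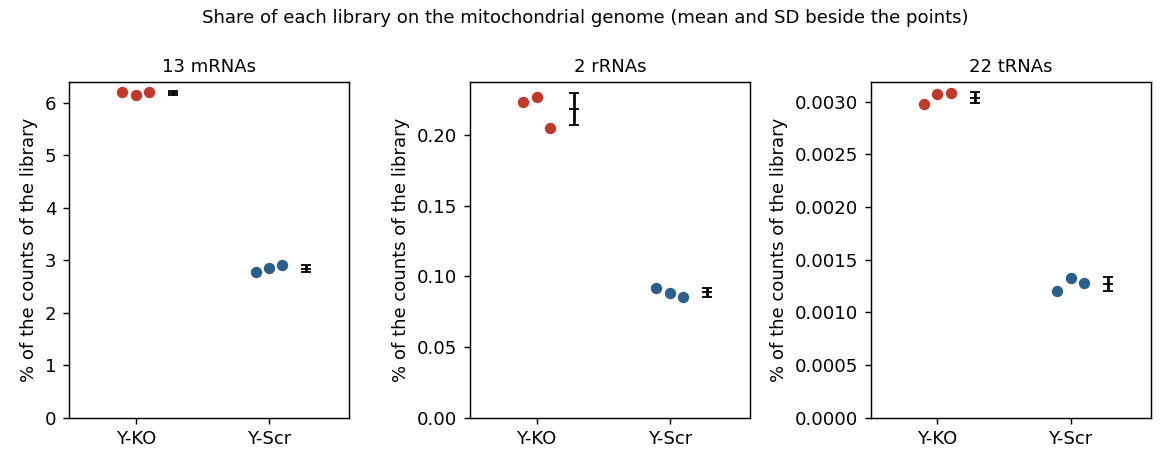
Share of the counts of each library on the 13 mRNA, 2 rRNA and 22 tRNA genes of the mitochondrial genome, in percent, with Y-KO left of Y-Scr. Points are the 3 libraries of a group and the bar beside them is the mean with its SD; in all 3 panels the Y-KO points lie above the Y-Scr points, and the vertical axes differ in scale.

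Gene by gene, counts were tested with edgeR's quasi-likelihood test across 17837 genes that passed a filter on low counts, and a gene was called when its Benjamini-Hochberg adjusted p was under 0.05. Of the 37 mitochondrial genes, 19 passed the filter: all 13 mRNA genes, both rRNA genes and 4 tRNA genes. All 13 mRNAs, both rRNAs and 1 tRNA rose in Y-KO, and none fell, where 16.1% of all tested genes were called in either direction, 7.82% were called higher and 8.27% lower. In all 19 the lowest Y-KO library was above the highest Y-Scr library, which held for 17.5% of all tested genes, while 37.7% had no overlap in either direction. The tRNA genes mt-Tn and mt-Tc reached the filter's minimum count of 10 in every Y-KO library but not in every Y-Scr library. They thus passed the filter through the group where they were higher, and their lack of overlap is no support. Over the 13 mRNAs the median log2 fold change (Y-KO minus Y-Scr; single genes are given ± SE) was 1.31, with a range of 0.93 to 1.73, where the median of all tested genes was -0.03. Scaled by library size alone and not by TMM, the median of all tested genes was -0.17 and that of the 13 mRNAs 1.17, and 730 genes were called higher and 2255 lower, against 1395 higher and 1476 lower with TMM. With the closest libraries summed (Y-KO replicates 1 and 2, Y-Scr replicates 2 and 3), which left 2 values a group, 14 of the 16 calls held, and mt-Atp8 (edgeR adjusted p = 0.114) and mt-Nd4l (adjusted p = 0.152) lost theirs. These 2 genes, both with few counts, also lost their calls without Y-KO replicate 1 and without any 1 of the Y-Scr replicates, at edgeR adjusted p of 0.0645 to 0.0771 for mt-Atp8 and 0.0968 to 0.134 for mt-Nd4l.

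**Figure D2:**
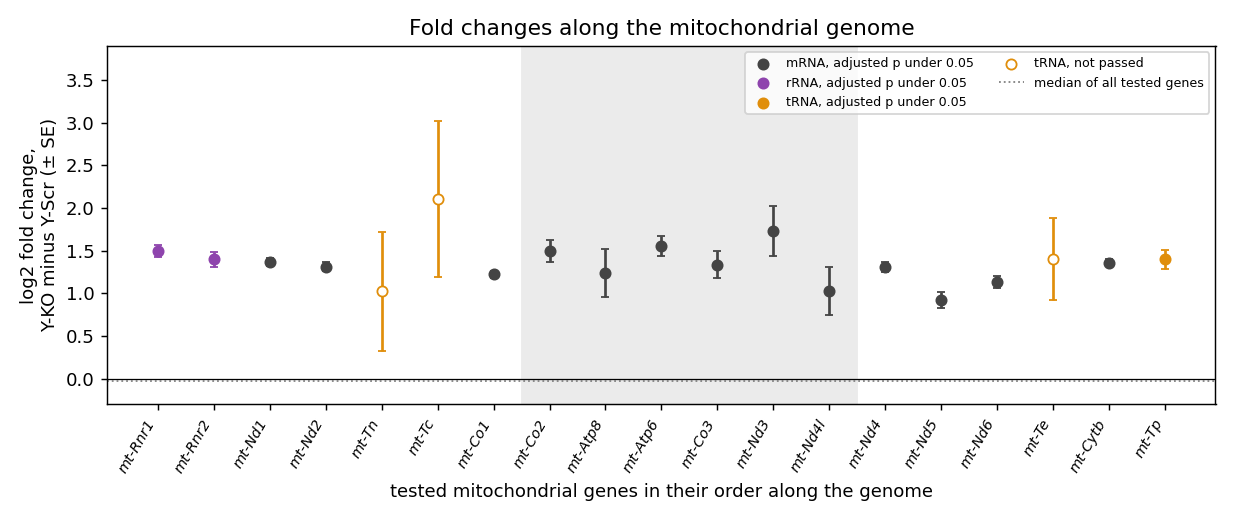
Log2 fold change (Y-KO minus Y-Scr, ± SE) of the 19 tested mitochondrial genes in their order along the genome, coloured by RNA class; filled points passed the test and open points did not. Every point lies above the dotted median of all tested genes (-0.03), mt-Nd5 is the lowest of the mRNAs at 0.93, and the grey band marks the genes from mt-Co2 to mt-Nd4l.

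Complex I, the NADH dehydrogenase that passes electrons to ubiquinone, has 7 subunits encoded here. Transcripts of all 7 rose, with log2 fold changes from 0.93 to 1.73 and a median of 1.31. The most abundant, mt-Nd1 (MT 2751 to 3707), whose product lies in the membrane arm next to the ubiquinone site, stood at 10452, 10300.3 and 9921 CPM in Y-KO, against 4106, 3874 and 3911 CPM in Y-Scr. The groups were far apart relative to their spread, with a 2.58-fold difference (log2 fold change 1.37 ± 0.05, edgeR adjusted p = 3.04e-06). The core membrane subunit gene mt-Nd2 (MT 3914 to 4951) had 4379, 4274 and 4205 CPM in Y-KO, against 1730.3, 1707 and 1743 CPM in Y-Scr, a log2 fold change of 1.31 ± 0.05 (edgeR adjusted p = 5.16e-06). mt-Nd4 (MT 10167 to 11544), which encodes one of the antiporter-like proton-pumping subunits, had 5525, 5332 and 5600.0 CPM in Y-KO, against 2333, 2078 and 2213 CPM in Y-Scr, with the same log2 fold change of 1.31 ± 0.06 (edgeR adjusted p = 1.40e-05). The SD within a group ran from 18.4 CPM (mt-Nd2 in Y-Scr) to 274 CPM (mt-Nd1 in Y-KO), far below each difference.

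The other 4 complex I genes varied more. mt-Nd5 (MT 11742 to 13565), the distal antiporter-like subunit, had 3290.1, 3399 and 2927 CPM in Y-KO, against 1477, 1753 and 1833 CPM in Y-Scr. It had the smallest change of the 13 mRNAs, a log2 fold change of 0.93 ± 0.09 (edgeR adjusted p = 0.000566), and the groups still did not overlap. mt-Nd6 (MT 13552 to 14070), the only mRNA gene on the minus strand, had 1307, 1256 and 1397 CPM in Y-KO, against 636, 577 and 595 CPM in Y-Scr, a log2 fold change of 1.13 ± 0.07 (edgeR adjusted p = 5.83e-05). The mt-Nd5 and mt-Nd6 genes overlap by 14 bases on opposite strands, and the counting did not use strand, so reads of mt-Nd6 and of RNA from the other strand there cannot be told apart. The small subunit genes mt-Nd3 (MT 9459 to 9806) and mt-Nd4l (MT 9877 to 10173) lie inside the stretch with nuclear copies and had few counts. mt-Nd3 had 16.6, 10.9 and 19.0 CPM in Y-KO, against 5.48, 5.54 and 2.99 CPM in Y-Scr (log2 fold change 1.73 ± 0.29, edgeR adjusted p = 0.00593). mt-Nd4l had 3.80, 2.75 and 3.47 CPM in Y-KO, against 1.35, 1.93 and 1.63 CPM in Y-Scr (log2 fold change 1.03 ± 0.28, edgeR adjusted p = 0.0409). They had the largest and the second smallest estimates of the 13 mRNAs, with wider SEs than the genes outside the copied stretch.

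Complex III, the cytochrome bc1 complex, takes 1 subunit from the mitochondrial genome, and complex IV, cytochrome c oxidase, takes 3 that form its catalytic core. mt-Cytb (MT 14145 to 15288), which encodes cytochrome b, had 11587, 11404 and 11537 CPM in Y-KO, against 4526, 4377 and 4537 CPM in Y-Scr, a log2 fold change of 1.36 ± 0.04 (edgeR adjusted p = 1.75e-06). mt-Co1 (MT 5328 to 6872), which encodes the subunit that reduces oxygen, was the most abundant mitochondrial mRNA, at 28609, 28835 and 28841 CPM in Y-KO, against 11928, 12386 and 12579.6 CPM in Y-Scr. It alone held 2.74% of all counts in Y-KO, against 1.29% in Y-Scr, and its log2 fold change was 1.23 ± 0.04 (edgeR adjusted p = 1.75e-06). Both genes differed between the groups by many times the spread within them. The other core subunit genes of complex IV had far fewer counts: mt-Co2 (MT 7013 to 7696) had 134, 106 and 134 CPM in Y-KO, against 38.1, 49.3 and 44.9 CPM in Y-Scr, and mt-Co3 (MT 8607 to 9390) had 76.7, 62.2 and 92.2 CPM in Y-KO, against 27.2, 34.8 and 29.7 CPM in Y-Scr. Both rose, with log2 fold changes of 1.50 ± 0.13 (edgeR adjusted p = 0.000284) for mt-Co2 and 1.33 ± 0.16 (edgeR adjusted p = 0.00120) for mt-Co3.

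Complex V, the ATP synthase, has 2 subunits encoded here, and their genes overlap by 43 bases. mt-Atp6 (MT 7927 to 8607), the subunit that forms the proton channel, had 84.7, 67.2 and 80.1 CPM in Y-KO, against 27.5, 27.6 and 23.7 CPM in Y-Scr, a log2 fold change of 1.56 ± 0.12 (edgeR adjusted p = 0.000156). mt-Atp8 (MT 7766 to 7969), a short membrane subunit, had 3.80, 2.89 and 3.63 CPM in Y-KO, against 1.17, 1.64 and 1.57 CPM in Y-Scr, a log2 fold change of 1.24 ± 0.28 (edgeR adjusted p = 0.0209). By complex, the median log2 fold change was 1.31 over the 7 mRNAs of complex I, 1.36 for the 1 of complex III, 1.33 over the 3 of complex IV and 1.40 over the 2 of complex V. These medians lay closer together than the genes within complex I did.

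The rRNA genes lie first on the plus strand. mt-Rnr1 (MT 70 to 1024), the 12S rRNA of the small mitochondrial ribosomal subunit, had 1059.5, 1056 and 1057 CPM in Y-KO, against 405, 369 and 349.5 CPM in Y-Scr (log2 fold change 1.50 ± 0.08, edgeR adjusted p = 2.15e-05). mt-Rnr2 (MT 1094 to 2675), the 16S rRNA of the large subunit, had 1299, 1341 and 1088 CPM in Y-KO, against 485, 467 and 459.6 CPM in Y-Scr (log2 fold change 1.40 ± 0.09, edgeR adjusted p = 5.83e-05). Both rose and neither overlapped between the groups. The libraries were selected for poly-A RNA, so these levels are not those of total rRNA. Relative to the 13 mRNAs, the log2 ratio of the rRNA counts was higher in Y-KO by 0.18 (exact permutation p = 0.2), and the log2 ratio of mt-Rnr2 to mt-Rnr1 was lower by 0.10 (exact permutation p = 0.5), in neither case beyond the overlap of the libraries.

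Most of the 22 tRNA genes had few or no counts. Over all 6 libraries, 10 tRNA genes had 0 counts, 7 had 1 to 20 and 5 had more, and a gene with 0 counts over a group may have a level of up to 0.0219 CPM in Y-KO or 0.0196 CPM in Y-Scr (3 counts over the 3 libraries, counting error only). Paired reads were counted singly, so 1 fragment can give more than 1 count, and this limit may be too low. The 8 genes on the minus strand held 6185 counts, while the 14 on the plus strand held 32. Most of the 6185 lay on mt-Tp alone, 4012 in Y-KO and 1696 in Y-Scr. The counting did not use strand, so a count at a tRNA gene can come from RNA of either strand. Of the genes with 0 counts, 9 were on the plus strand and 1 on the minus strand. Of the 8 genes that had counts but did not pass the filter, mt-Ty, for tyrosine, had the most, 16 in Y-KO, against 8 in Y-Scr, and mt-Tl1, for leucine, had 13 in Y-KO and 6 in Y-Scr. mt-Tp, the tRNA for proline, held 91.7% of the tRNA counts in Y-KO, against 92.1% in Y-Scr, and it is the last annotated gene of the genome, with no annotated gene after it. The 4 tRNA genes that passed the filter are printed because they carry the tRNA values; each lies on the minus strand and is read 5′ to 3′ on it, with the anticodon in capitals. The anticodon was found as the middle of a 7-base loop closed by a 5-base stem.
mt-Tp: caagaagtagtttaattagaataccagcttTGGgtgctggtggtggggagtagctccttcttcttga
mt-Te: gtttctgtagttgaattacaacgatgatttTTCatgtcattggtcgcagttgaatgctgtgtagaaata
mt-Tn: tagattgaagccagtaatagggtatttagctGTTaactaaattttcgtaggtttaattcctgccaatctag
mt-Tc: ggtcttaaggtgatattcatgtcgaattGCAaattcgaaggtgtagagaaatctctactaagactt

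mt-Tp (MT 15356 to 15422) was the 1 tRNA that passed the test, at 28.5, 30.1 and 29.5 CPM in Y-KO, against 10.9, 11.5 and 11.0 CPM in Y-Scr (log2 fold change 1.40 ± 0.11, edgeR adjusted p = 0.000167). The lowest Y-KO library was well above the highest Y-Scr library. mt-Te (MT 14071 to 14139), for glutamate, lies between mt-Nd6 and mt-Cytb and had 74, 64 and 57 counts in Y-KO, against 17, 23 and 42 in Y-Scr (log2 fold change 1.40 ± 0.48, edgeR adjusted p = 0.0830). mt-Tn (MT 5089 to 5159), for asparagine, had 17, 16 and 23 counts in Y-KO, against 13, 7 and 11 in Y-Scr (log2 fold change 1.03, edgeR adjusted p = 0.370), and mt-Tc (MT 5192 to 5257), for cysteine, had 36, 13 and 18 counts in Y-KO, against 4, 10 and 2 in Y-Scr (log2 fold change 2.11, edgeR adjusted p = 0.157). These 3 did not pass the test. Of these 4 genes, mt-Tp touches mt-Tt on one side and has no annotated gene on the other, mt-Te touches mt-Nd6 and lies 5 bases from mt-Cytb, and mt-Tn and mt-Tc are separated by a gap of 32 bases. Reads that fit several genes were left out of the counting, and strand was not used. The part of neighbours and of RNA from the other strand in these counts was not tested.

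Per kilobase of gene, levels lay in 2 ranges that divided at the stretch with nuclear copies. The 7 mRNAs that lie outside the copied stretch or have only 1 end in it stood at 1757 to 18616 CPM per kb in Y-KO and 925 to 7960 CPM per kb in Y-Scr. The 6 that lie inside it (mt-Co2, mt-Atp8, mt-Atp6, mt-Co3, mt-Nd3 and mt-Nd4l) stood at 11.2 to 182 CPM per kb in Y-KO and 5.51 to 64.4 CPM per kb in Y-Scr. In Y-KO the order from high to low was mt-Co1, mt-Nd1, mt-Cytb, mt-Nd2, mt-Nd4, mt-Nd6, mt-Nd5, mt-Co2, mt-Atp6, mt-Co3, mt-Nd3, mt-Atp8 and mt-Nd4l. In Y-Scr it differed only in mt-Co3 and mt-Atp6, at 39.0 and 38.6 CPM per kb, which overlapped between libraries. mt-Co1, upstream of them on the same strand, stood at 18616 CPM per kb in Y-KO and 7960 CPM per kb in Y-Scr. These levels and this order use the full gene length, though part of mt-Co1 and of mt-Nd4 is identical to a copy. With counts divided only by the bases outside the identical part, mt-Nd4 stood at 10928 CPM per kb in Y-KO and 4398 in Y-Scr. That was above mt-Nd1 (10684 in Y-KO and 4141 in Y-Scr) and mt-Cytb (10060 in Y-KO and 3916 in Y-Scr). mt-Co1 then stood at 26981 in Y-KO and 11537 in Y-Scr. How far the lower range reflects the amount of these mRNAs or reads left out of the counting was not tested.

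**Figure D3:**
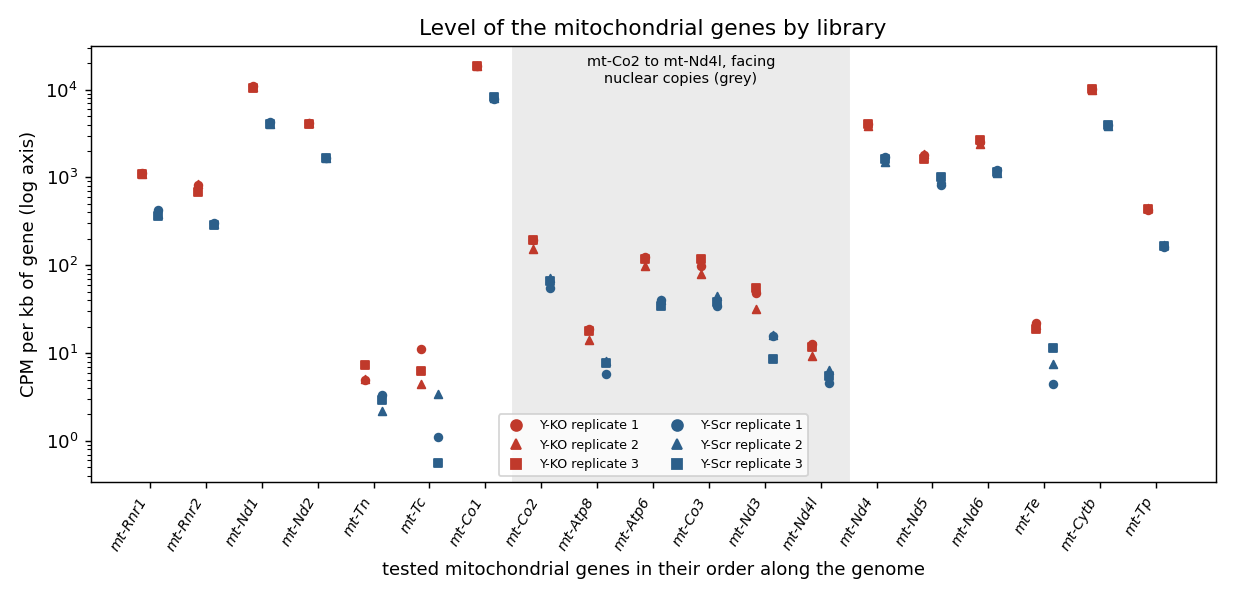
CPM per kb of gene (log axis) of the 19 tested mitochondrial genes in their order along the genome, with the 3 Y-KO libraries left of the 3 Y-Scr libraries for each gene. The Y-KO points lie above the Y-Scr points for every gene, and the mRNAs in the grey band, mt-Co2 to mt-Nd4l, reach at most 182 CPM per kb in Y-KO, against at least 1757 for the other mRNAs.

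The nuclear copies are listed in the count table as genes of their own and moved with the mitochondrial genes. Gm28661, the copy of mt-Co2, had 131 ± 19.4 CPM in Y-KO, against 46.4 ± 8.22 CPM in Y-Scr (SD, n = 3 each), close to the level of mt-Co2 itself. Its log2 fold change was 1.50, as that of mt-Co2. Of the counts on mt-Co2 and its copy together, 50.1, 48.8 and 47.2% lay on mt-Co2 in Y-KO and 46.7, 47.0 and 52.9% in Y-Scr. For mt-Atp6 and Gm10925 the shares on the mitochondrial gene were 47.4, 45.6 and 46.1% in Y-KO, against 47.3, 42.1 and 41.2% in Y-Scr, and for mt-Co3 and Gm28437 they were 53.7, 54.1 and 56.2% in Y-KO, against 51.2, 50.2 and 54.7% in Y-Scr. In these pairs the counts were thus divided about evenly between gene and copy, in both groups. Of the pair of mt-Nd3 and Gm28438, the mitochondrial gene had the smaller part, 32.7, 25.8 and 37.3% in Y-KO and 30.7, 33.7 and 18.3% in Y-Scr. For mt-Co1 and mt-Nd4, which reach beyond the copied stretch, the mitochondrial gene held at least 99.4% in every library.

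Over the 7 copies the median log2 fold change was 1.39, with a range of 1.00 to 1.50. The test called 6 of the 7 higher, the exception being Gm10222, the copy of mt-Nd4l (edgeR adjusted p = 0.0574). Among all tested genes 7.82% were called higher. Since 6 of the 7 copies were identical to the mitochondrial gene over all aligned bases, their calls are not separate from those of the mitochondrial genes. Reads that match a gene and its copy equally were left out by the counting defaults, so how the counts on identical sequence were divided cannot be read from the table. With the counts of each copy added to its mitochondrial gene, the log2 fold changes were 1.50 for mt-Co2, 1.46 for mt-Atp6, 1.26 for mt-Co3, 1.51 for mt-Nd3 and 1.01 for mt-Nd4l, and the same number of mitochondrial genes, 16, was called. The 6 mRNAs inside the stretch had a median log2 fold change of 1.42 with SEs of 0.12 to 0.29, and the other 7 had a median of 1.31 with SEs of 0.04 to 0.09. mt-Atp8, which has no annotated copy, stood at 16.9 CPM per kb in Y-KO and 7.15 CPM per kb in Y-Scr, below its neighbours mt-Co2 (182 in Y-KO and 64.4 in Y-Scr) and mt-Atp6 (114 in Y-KO and 38.6 in Y-Scr). The gap on chromosome 1 between the copies of mt-Co2 and mt-Atp6 is 233 bases, against 230 on the mitochondrial genome.

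**Figure D4:**
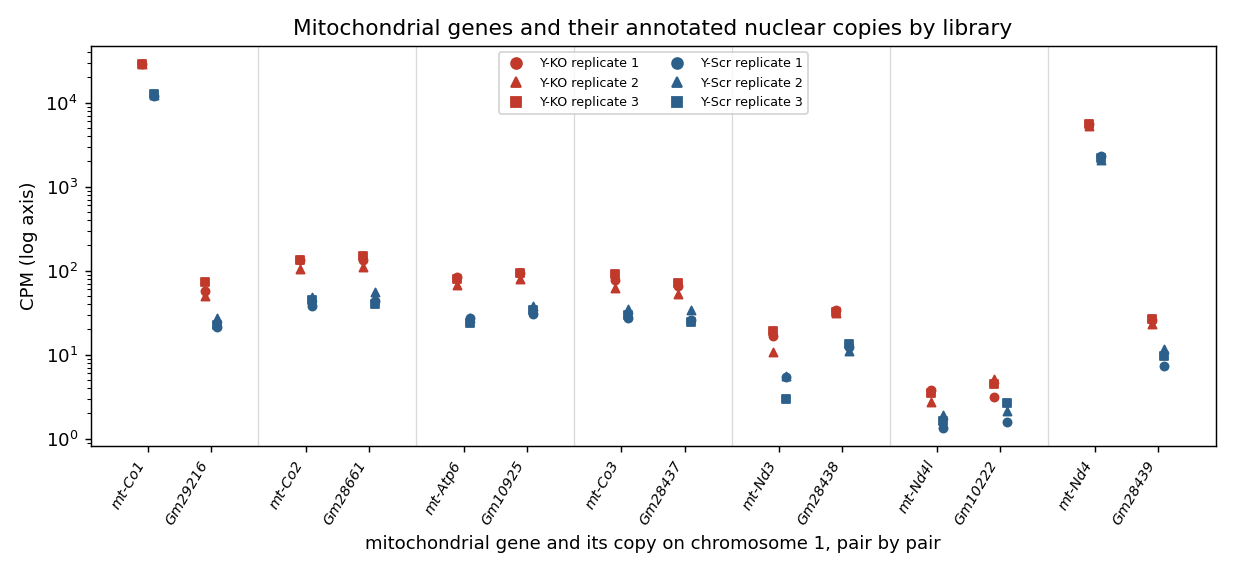
CPM (log axis) of 7 mitochondrial genes and of the annotated copy of each on chromosome 1, pair by pair, with the 3 Y-KO libraries left of the 3 Y-Scr libraries. From mt-Co2 to mt-Nd4l gene and copy lie at similar levels, with mt-Nd3 (15.5 CPM in Y-KO) below its copy (32.5 CPM), whereas mt-Co1 (28762 CPM in Y-KO) and mt-Nd4 (5486 CPM in Y-KO) lie far above their copies (60.7 and 25.2 CPM).

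To set the 13 mRNAs against each other within a library, the counts of each mRNA were divided by those of the other 12. mt-Nd5 was lower relative to the others, with no overlap between the groups. Its log2 ratio was -4.24, -4.18 and -4.40 in Y-KO, against -4.10, -3.84 and -3.81 in Y-Scr. It made up 5.03, 5.23 and 4.52% of the mRNA counts in Y-KO, against 5.50, 6.52 and 6.66% in Y-Scr. The difference in log2 ratio was -0.36 (exact permutation p = 0.1, adjusted p = 0.237 over 19 ratios), so it did not pass the correction, which no value could in this design. In the other direction, mt-Nd1 and mt-Cytb were each 0.12 higher, mt-Nd2 0.05 higher and mt-Atp6 0.29 higher, also with no overlap and an exact permutation p of 0.1. With mt-Co1 left out of the mRNAs, mt-Atp6 (0.26 higher) and mt-Nd2 (0.02 higher) overlapped (exact permutation p = 0.2 each), and relative to the mRNAs without a copy mt-Atp6 overlapped (0.26 higher, exact permutation p = 0.3). Under both of these alternatives mt-Nd5, mt-Nd1 and mt-Cytb had no overlap. The remaining 8 mRNAs overlapped between the groups; mt-Co1, the largest, was 0.07 lower (exact permutation p = 0.2) and mt-Nd6 was 0.14 lower (exact permutation p = 0.2), and under both alternatives mt-Nd6 was 0.17 lower with no overlap (exact permutation p = 0.1).

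**Figure D5:**
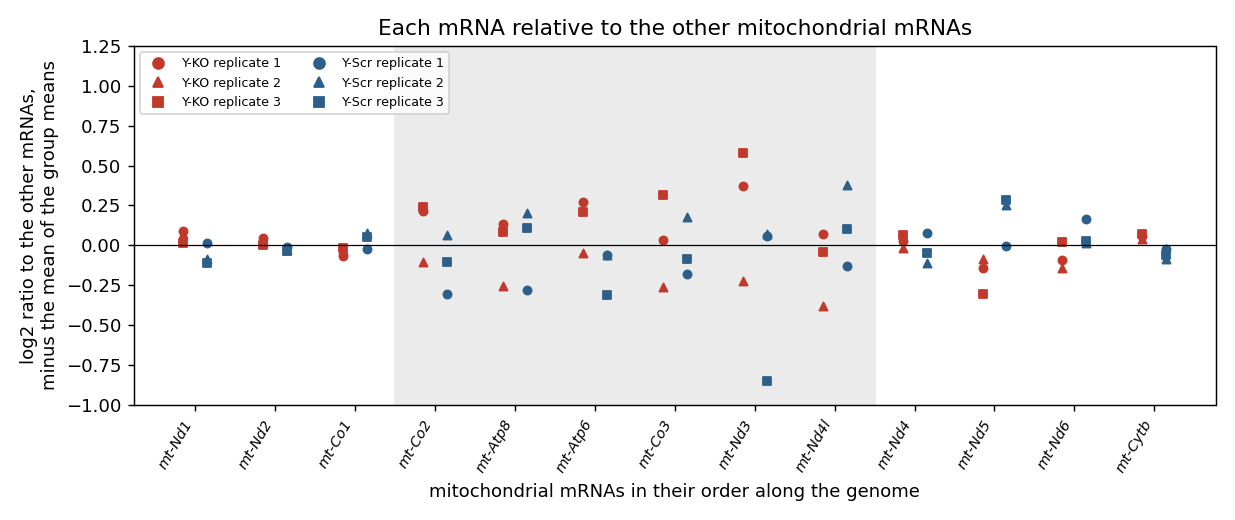
Log2 ratio of each of the 13 mRNAs to the other 12 within a library, centred for each gene on the mean of the 2 group means, in genome order, with Y-KO left of Y-Scr. For mt-Nd5 the 3 Y-KO libraries lie below the 3 Y-Scr libraries (difference -0.36), and the genes in the grey band, which have few counts, include the widest spread, that of mt-Nd3.

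The complexes were compared with each other in the same way. Relative to the summed mRNAs of complex IV, those of complex I were 0.04 higher on the log2 scale in Y-KO (exact permutation p = 0.3), that of complex III 0.13 higher (exact permutation p = 0.1) and those of complex V 0.31 higher (exact permutation p = 0.1), each a difference far under the 1.31 of the median mRNA. The complex IV sum was almost all mt-Co1 (28609 of 28819 CPM in Y-KO replicate 1). The complex V sum was mt-Atp6 and mt-Atp8, both inside the copied stretch, at 70.1 to 88.5 CPM in Y-KO and 25.3 to 29.2 CPM in Y-Scr. mt-Nd5, with the smallest change of the 13, is the last long mRNA gene of the plus strand before mt-Cytb, and mt-Cytb, after it, had a larger change. Across the 15 mRNA and rRNA genes, Spearman's rho between the log2 fold change and the start position was -0.39, and across the 9 outside the copied stretch or with only 1 end in it, it was -0.68; between the log2 fold change and the level per kilobase it was -0.16 and -0.23. These values describe genes of the same 6 libraries, which share precursors and overlap and are not independent.

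Nuclear genes for subunits of the same complexes moved much less. Of 76 tested, 9 rose and none fell, with a median log2 fold change of 0.20. Over all tested genes 7.82% were called higher and 16.1% in either direction, so the count of 9 was near the background. Ndufv1, which encodes the NADH-binding subunit of complex I, had 173 ± 4.68 CPM in Y-KO, against 120 ± 11.6 CPM in Y-Scr (SD, n = 3 each; log2 fold change 0.52, edgeR adjusted p = 0.00707). Uqcrq of complex III rose by a log2 fold change of 0.58 (edgeR adjusted p = 0.00883), Atp5g1, which encodes the c-ring subunit of complex V, by 0.52 (edgeR adjusted p = 0.0105) and Cox8a of complex IV by 0.34 (edgeR adjusted p = 0.0349), while none of the 4 genes of complex II, which has no mitochondrially encoded subunit, passed. The count of 9 rested on the libraries: it was 0 with the closest libraries summed. Leaving out 1 Y-KO library gave 4 (replicate 1), 3 (replicate 2) or 34 with 2 lower (replicate 3). Leaving out 1 Y-Scr library gave 21 (replicate 1) or 0 (replicates 2 and 3).

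Within each library, mRNAs of the mitochondrial genome were also set against nuclear mRNAs of the same complexes. For all complexes together, the log2 ratio of the mitochondrially encoded to the nuclear-encoded mRNA counts was 2.51, 2.53 and 2.49 in Y-KO and 1.31, 1.49 and 1.54 in Y-Scr. The groups did not overlap, and the difference was 1.06, or 2.09-fold (exact permutation p = 0.1). By complex the difference was 1.04 for complex I, 1.20 for complex III, 0.99 for complex IV and 1.35 for complex V, each with an exact permutation p of 0.1 (adjusted p = 0.1 over 6 ratios). For complex V the mean log2 ratio itself was -5.91 in Y-KO and -7.27 in Y-Scr, where the group means of the other complexes lay between 2.02 and 3.80. Its mitochondrial side was mt-Atp6 and mt-Atp8, which lie inside the copied stretch and had far fewer counts. Relative to 21 nuclear genes for abundant proteins of the mitochondrial membranes, matrix and folding machinery, the ratio was 0.89 higher on the log2 scale, or 1.86-fold. Of those 21, 11 rose and none fell (median log2 fold change 0.27), where 7.82% of all tested genes were called higher and 8.27% lower. Among the 11 was the chaperone gene Hspa9 (732 ± 97.6 CPM in Y-KO, against 429 ± 3.34 CPM in Y-Scr, edgeR adjusted p = 0.00186). Others were the chaperone gene Hspd1 (620 ± 101 CPM in Y-KO, against 351 ± 11.9 CPM in Y-Scr, edgeR adjusted p = 0.00276) and the outer membrane channel gene Vdac1 (446 ± 6.54 CPM in Y-KO, against 320 ± 14.6 CPM in Y-Scr, edgeR adjusted p = 0.00322).

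Of 24 tested nuclear genes that copy and transcribe the mitochondrial genome, 2 rose and 1 fell, with a median log2 fold change of 0.05. Over all tested genes 7.82% were called higher and 8.27% lower, so these counts were near the background. Polrmt, the mitochondrial RNA polymerase gene, had 35.7 ± 3.22 CPM in Y-KO, against 33.5 ± 1.30 CPM in Y-Scr (log2 fold change 0.09 ± 0.10, edgeR adjusted p = 0.608), and Tfam, which encodes the protein that packages mitochondrial DNA and starts its transcription, had 57.3 ± 0.947 CPM in Y-KO, against 55.4 ± 4.20 CPM in Y-Scr (log2 fold change 0.05 ± 0.09, edgeR adjusted p = 0.766). Both are named for their roles, with their values known. The genes that passed were Lonp1, a matrix protease gene (254 ± 40.2 CPM in Y-KO, against 139 ± 10.3 CPM in Y-Scr, log2 fold change 0.87, edgeR adjusted p = 0.00276), Twnk, the replicative helicase gene (log2 fold change 0.42, edgeR adjusted p = 0.0202), and Rrm2b, a ribonucleotide reductase subunit gene, which fell (log2 fold change -0.56, edgeR adjusted p = 0.0266).

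Among 32 tested genes for processing, polyadenylation, stability and decay of mitochondrial RNA, 5 rose and 1 fell, with a median log2 fold change of 0.13. Both directions together were near the 16.1% of all tested genes called. By direction, the share that rose was above the 7.82% of all tested genes called higher, and the share that fell was under the 8.27% called lower. Lrpprc, whose product binds and stabilises mitochondrial mRNAs, had 108, 109 and 92.3 CPM in Y-KO, against 66.0, 70.2 and 69.3 CPM in Y-Scr, a log2 fold change of 0.59 ± 0.09 (edgeR adjusted p = 0.00451). Ddx28, an RNA helicase gene of mitochondrial ribosome assembly, rose by a log2 fold change of 0.62 (edgeR adjusted p = 0.0100) and Tbrg4, of the FASTK family of mitochondrial RNA-binding proteins, by 0.41 (edgeR adjusted p = 0.0377). The family did not move together. Fastkd3 rose (log2 fold change 0.61, edgeR adjusted p = 0.0425), while Fastkd1 was the 1 gene of this list that fell (-0.44, edgeR adjusted p = 0.0481). Fastk, Fastkd2 and Fastkd5 did not pass. These other family members are named after their values were seen. Of the 8 regulators of mitochondrial biogenesis, Esrra, a nuclear receptor gene, rose (log2 fold change 0.37, edgeR adjusted p = 0.0480). Ppargc1a, the coactivator gene, fell to 1.28 ± 0.134 CPM in Y-KO, against 3.44 ± 0.411 CPM in Y-Scr (log2 fold change -1.43, edgeR adjusted p = 0.00994). It was the 1 of these 8 that fell, and it is named after its values were seen, since its level was under the 5 CPM set for naming nuclear genes. With the closest libraries summed, none of these nuclear lists had a called gene. Leaving out 1 library also moved the counts of genes called higher. They ran from 1 to 3 for the genes that copy and transcribe the mitochondrial genome, from 1 to 9 for RNA processing and from 5 to 16 for the 21 abundant proteins, each highest without Y-KO replicate 3.

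Other cells in the sorted fraction and the state of the RNA moved between the groups, and their part in the mitochondrial result was not tested. Beside the counts of called markers in each list, 7.82% of all tested genes were called higher and 8.27% lower. The 7 leukocyte markers summed to 1085 to 2408 CPM in Y-KO, against 3016 to 3107 CPM in Y-Scr, with 2 lower and none higher. The 8 macrophage markers summed to 780 to 1221 CPM in Y-KO, against 575 to 640.0 CPM in Y-Scr, with 5 higher, and the 7 T and NK cell markers to 84.0 to 146 CPM in Y-KO, against 297 to 326 CPM in Y-Scr, with 6 lower. The 6 fibroblast markers summed to 122 to 581 CPM in Y-KO, against 785 to 831 CPM in Y-Scr, with 2 lower, and the 4 erythroid markers to 0.726 to 0.867 CPM in Y-KO, against 227 to 269 CPM in Y-Scr, with all 4 lower. No marker of these lists was at 0 in all libraries of a group. Of 11 epithelial and urothelial markers, 8 were tested, 4 were higher and 2 lower, and 2 were at 0 in Y-KO and 1 in Y-Scr. Between Y-KO libraries, replicate 3 had 580.7 CPM of fibroblast and 1085 CPM of leukocyte markers, against 122 to 124 CPM and 2357 to 2408 CPM in replicates 1 and 2, while its share of mitochondrial counts, 6.41%, lay between theirs. Among RNA measures, the 4 tested long RNAs retained in the nucleus had 1 member lower and none higher, summing to 767 to 1056 CPM in Y-KO, against 1033 to 1110.5 CPM in Y-Scr. The 14 genes that respond to tissue dissociation summed to 1594 to 3208 CPM in Y-KO, against 2040 to 2075 CPM in Y-Scr, with 1 higher and 1 lower. The 4 matched RNAs without a poly-A tail summed to at most 0.124 CPM in any library.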

How the data were processed

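The authors deposited raw read counts per gene in 1 table of 6 columns, and each column was matched to its library by name. Per the file headers, counts were made with featureCounts 1.5.3 and Ensembl release 112, and the command line sets no further option; by default, strand is not used, reads of a pair are counted singly, and reads that fit several places or genes are left out. Among low counts, 80.3 to 82.3% were even, as singly counted pairs give. The submitters' processing notes also name Trimmomatic 0.39 and STAR 2.5.2b, and the build GRCm39. Coordinates are those of the deposited file. Symbols (51880 of 57186 IDs) and sequences came from GENCODE M21 (GRCm38) by gene ID, and all 37 mitochondrial genes and all 7 copies had the same length there.

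Groups followed the sample titles. The test was edgeR 4.0.16 in R 4.3.3 with filterByExpr (minimum count 10, minimum total 15), TMM and group alone in the model. SEs were taken as the log2 fold change over the root of edgeR's F. Ratios within libraries were compared by exact two-sided permutation. All 37 genes are named or counted; from nuclear lists, up to 3 members with the smallest p and at least 5 CPM in a group, and up to 2 with the largest p, could be named. The genes and lists were chosen with earlier results of these data known. Alternatives were the replicate block, DESeq2 1.42.0, limma-voom (limma 3.58.1), other scalings and filters, halved counts and each library left out; summed close pairs were also planned, and copies added to their genes, ratios of mitochondrial to nuclear mRNAs and ratios to the mRNAs without a copy were added after seeing the data. The edgeR step was tested on simulated data. Intervals and limits cover counting error only.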

Additional observations from a re-analysis of the deposited data

How the results depend on the processing

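All mitochondrial calls were toward Y-KO under every setting tried. The number of mitochondrial genes called, 16 of 19 tested, was 16 with limma-voom, DESeq2 size factors, scaling from the nuclear genes, halved counts and copies added to their genes, 17 with DESeq2 and with at least 50 counts (mt-Te gained), 15 with library size alone and with no filter (mt-Nd4l lost), and 14 with the close pairs summed. Leaving out 1 library gave 14 to 16. Of the single-gene results under these settings, 303 kept their side of the threshold, 14 lost it (mt-Atp8 and mt-Nd4l) and 2 gained it. The median of the 13 mRNAs was 1.17 with library size alone, where the median of all genes was -0.17 and not -0.03. The number of all genes called (2871) was 496 with close pairs summed and ran from 1037 to 6393 when 1 library was left out, the highest without Y-KO replicate 3. It was 1733 and 1801 without Y-KO replicates 1 and 2, and 1735, 1043 and 1037 without Y-Scr replicates 1, 2 and 3.

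The ratio of mitochondrial shares ran from 2.16 to 2.21 without 1 library. The difference of mt-Nd5 in log2 ratio to the other mRNAs ran from -0.45 to -0.29 without 1 library. Ratios that turned sign were those of mt-Atp8 (0.097 without Y-KO replicate 2, 0.073 and 0.026 without Y-Scr replicates 2 and 3, from -0.17 to 0.097 in all) and mt-Co3 (-0.086 without Y-KO replicate 3, -0.017 without Y-Scr replicate 1, from -0.086 to 0.20 in all), neither of which was apart between the groups. The cause was not tested.

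Same-numbered libraries did not deviate together (correlations from -0.014 to 0.005), so no pairing by number was seen. The correlations took in all tested genes, also those with low counts, and cannot show that pairing was absent. With the replicate block, 14 mitochondrial and 2066 of all genes were called, without mt-Atp8 (edgeR adjusted p = 0.0602) and mt-Nd4l (edgeR adjusted p = 0.102).

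The 18 tRNA genes below the filter had few or no counts and were not tested, and mt-Atp8 and mt-Nd4l also had few counts. The cause of these low counts was not tested. With 3 libraries a group, no exact permutation p is under 0.1.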
